A study of Saccharomyces cerevisiae with 4 samples.

Results

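The 7 genes CDC19, PGK1, TDH3, ENO1, ENO2, PDC1 and ADH1 encode enzymes of the lower part of glycolysis and of alcoholic fermentation in budding yeast. They were chosen by name, with the windows of 150 bp whose midpoint lies in the gene body or within 1 kb of it. This gave 152 of 81046 windows, of which 63 lie in gene bodies, 46 upstream of the genes and 43 downstream, in the direction of transcription. The assay was chromatin immunoprecipitation with sequencing (ChIP-seq) in strain BY4741, with polyclonal antibodies to the phosphorylated threonine 45 of histone H3 (H3T45p) or to the C-terminal end of H3, which every H3 carries. The 4 groups were H3T45p in hydroxyurea, H3 in hydroxyurea, H3T45p in untreated cells and H3 in untreated cells, with 1 library each. All cells had grown in rich medium (YPD) to mid-log phase. The hydroxyurea cells had 200 mM of the drug for 2 h, and the untreated cells had none. By its title, the series asks how histone marks set by Cdc7, a kinase of DNA replication, bear on genes of biosynthesis.

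Glycolysis turns glucose into pyruvate, and fermentation turns pyruvate into ethanol, which is the main fate of glucose in budding yeast in rich medium. The genes of these enzymes are known as some of the most heavily transcribed in growing yeast, driven from upstream activating sequences bound by Rap1 and Gcr1. Regions of active promoters are known to hold few nucleosomes. Hydroxyurea blocks the enzyme that makes deoxynucleotides, so that DNA replication slows or halts. Threonine 45 sits in H3 close to where the DNA joins and departs the nucleosome. No RNA was measured here, so the label of highly transcribed genes is background and could not be checked in these libraries.

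The 4 libraries held 23588153 to 28690293 reads in windows. With 1 library per group no difference between conditions has a replicate check, no test of the conditions was possible, and no p-value is given. The hydroxyurea libraries both carry the number 1 in their titles and the untreated libraries the number 2, so that a batch, if the numbers mark one, and the treatment cannot be told apart. Neither an input nor a mock immunoprecipitation is among the libraries used, so signal that any antibody would give at a window was not measured. Errors marked as counting error are 95% intervals from read counts, and reads are not independent molecules. The signal is relative within a library, and the median nuclear window of the libraries had a signal between 277 and 289. ENO1 and ENO2 are near-identical copies, and TDH3, PDC1 and ADH1 also have close copies elsewhere in the genome. How the authors placed reads that match several copies is not stated, which leaves the body values of these genes uncertain to that extent.

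Upstream of all 7 genes the H3T45p signal was higher in hydroxyurea than in untreated cells, while the H3 signal was somewhat lower. The change of H3T45p over the 1 kb upstream was 0.5 or more on the log2 scale (28.3 added to each mean signal) at 7 of 7 genes. It was between 0.51 and 1.87 with a median of 0.80. Among all blocks of 7 consecutive nuclear windows, which are of about the same length, 6.54% changed as much in this direction and the median was 0.04. The blocks were laid end to end along each chromosome and not placed by gene starts. A block can therefore split a stretch that the flank of a gene holds whole, so shares of blocks are a rough guide to how rare a value is. The change of H3 upstream lay between -0.9997 and -0.09 with a median of -0.27, beside -0.04 over all blocks, and was -0.5 or less at ENO1 and ADH1 (4.03% of blocks).

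TDH3 encodes the main glyceraldehyde-3-phosphate dehydrogenase of growing cells and lies on chromosome 7 from 882812 to 883810 on the minus strand. The positions of all genes are those given with the choice of windows and may be off by under 100 bp in the coordinates of the files, for which no source used here names a build. Upstream of TDH3 the mean H3T45p signal was 467 in hydroxyurea against 203 in untreated cells. The mean H3 signal there was 177 in hydroxyurea against 189.6 in untreated cells. The difference was largest in a stretch poor in H3. In the window centred 365 bp before the start (884101 to 884250) the H3T45p signal was 1053 in hydroxyurea against 121 in untreated cells, 8.71-fold higher (7.21 to 10.6, exact binomial interval on the reads). The H3 signal in that window was 48.9 in hydroxyurea against 72.9 in untreated cells.

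PGK1 encodes phosphoglycerate kinase, which makes the first ATP of the pathway, and lies on chromosome 3 from 137746 to 138996 on the plus strand. Upstream of PGK1 the mean H3T45p signal was 565 in hydroxyurea against 134 in untreated cells. The mean H3 signal was 112 in hydroxyurea against 122 in untreated cells. PGK1 thus had the highest upstream value of the 7 genes for H3T45p in hydroxyurea. In the window centred 421 bp before the start (137251 to 137400) the H3T45p signal was 1229 in hydroxyurea against 137 in untreated cells, 8.94-fold higher (7.49 to 10.7). The H3 signal there was 43.5 in hydroxyurea against 67.9 in untreated cells. Of 77451 nuclear windows with signal in any library, none had a larger change of H3T45p than this one, on the log2 scale with the added constant.

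ENO1 and ENO2 encode the enolases, ENO1 on chromosome 7 from 1000927 to 1002240 and ENO2 on chromosome 8 from 451327 to 452640, both on the plus strand. Upstream of ENO1 the mean H3T45p signal was 388 in hydroxyurea against 252 in untreated cells. The mean H3 signal was 126 in hydroxyurea against 281 in untreated cells, the largest difference of H3 upstream among the 7 genes. Upstream of ENO2 the mean H3T45p signal was 268 in hydroxyurea against 181 in untreated cells, and that of H3 was 128 in hydroxyurea against 174 in untreated cells. With no allowance for their surroundings, the pair of enolase genes differed in which signal moved more. At ENO1 the H3 signal changed by -0.9997 ± 0.11 (counting error) and H3T45p by 0.57 ± 0.09, and at ENO2 H3 changed by -0.37 ± 0.12 and H3T45p by 0.51 ± 0.10.

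CDC19 encodes pyruvate kinase, the last enzyme of glycolysis, and lies on chromosome 1 from 71786 to 73288 on the plus strand. Its upstream kilobase held the least H3 of the 7, with a mean signal of 36.9 in hydroxyurea against 50.2 in untreated cells. The mean H3T45p signal there was 182 in hydroxyurea against 66.9 in untreated cells. In the window centred 461 bp before the start (71251 to 71400) the H3T45p signal was 480.2 in hydroxyurea against 94.6 in untreated cells, 5.08-fold higher (4.06 to 6.40). The H3 signal of that window was 29.0 in hydroxyurea against 65.0 in untreated cells, so the H3T45p signal was high where H3 was low.

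The fermentation genes followed the same pattern. PDC1, the main pyruvate decarboxylase, which makes acetaldehyde from pyruvate, lies on chromosome 12 from 232390 to 234081 on the minus strand. Upstream of PDC1 the mean H3T45p signal was 295 in hydroxyurea against 159 in untreated cells, and that of H3 was 138 in hydroxyurea against 155 in untreated cells. ADH1, the alcohol dehydrogenase that reduces acetaldehyde to ethanol, lies on chromosome 15 from 159548 to 160594 on the minus strand. Upstream of ADH1 the mean H3T45p signal was 473 in hydroxyurea against 259.8 in untreated cells, and that of H3 was 209 in hydroxyurea against 333 in untreated cells.

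**Figure D1:**
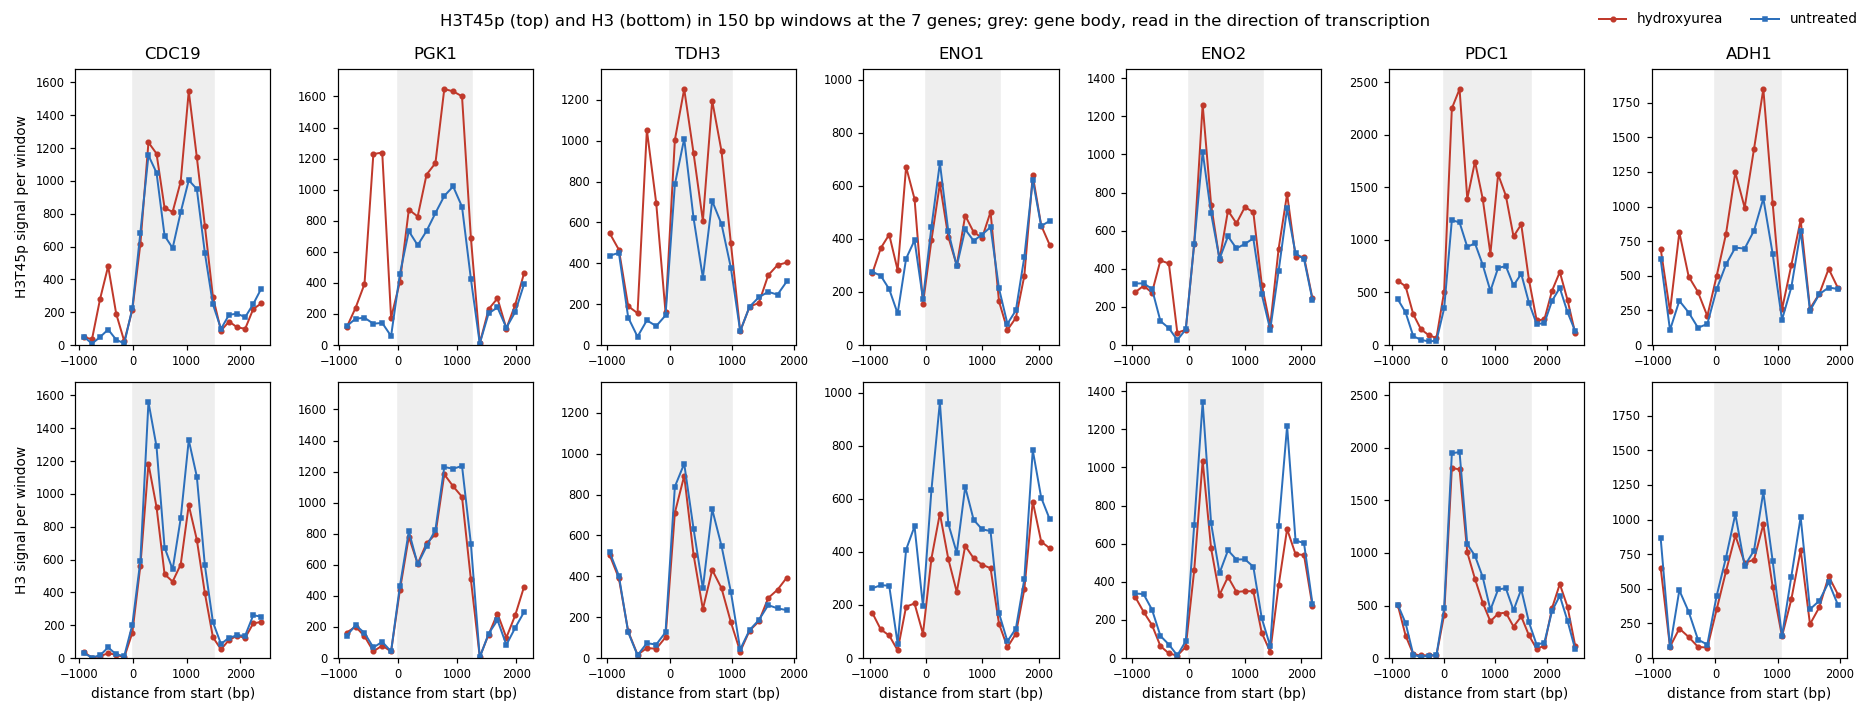
H3T45p signal (top) and H3 signal (bottom) per 150 bp window, in the units of the deposited files, against the distance in bp from the start of each of the 7 genes, with the gene body in grey, hydroxyurea in red and untreated cells in blue. Upstream of PGK1 the H3T45p signal reached 1239 in hydroxyurea where that of untreated cells was 142, with no such difference in H3.

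The windows with the largest upstream change of H3T45p were centred between 281 bp (ADH1) and 594 bp (PDC1) before the start. For the other 5 genes the distance was 365 bp at TDH3, 421 bp at PGK1, 502 bp at ENO1, 352 bp at ENO2 and 461 bp at CDC19. These windows were picked as the highest of each gene, so their folds are descriptions. The smallest fold was that of ENO1, 2.37 (1.90 to 2.97). At each of the 7 the H3 signal of the window was 133 or less in both conditions, below the genome median. Ranked over 77451 nuclear windows by the change of H3T45p, 4 of the 10 highest lay upstream of PGK1 and TDH3. Of the 25 highest, 7 lay upstream of 4 of the genes. None of the 100 highest windows lay in a body or downstream of the 7 genes. That says little, as bodies hold 0.0783% and downstream flanks 0.0534% of nuclear windows, beside 0.0572% for the upstream flanks. Of the 1000 highest, 22 lay upstream of 7 genes, 4 in the body of 1 gene and 0 downstream.

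The ratio of H3T45p over H3 shows the same at the level of each condition. In hydroxyurea the log2 ratio upstream was 0.5 or more at 7 of 7 genes, from 0.92 at ENO2 to 2.08 at PGK1. Of all blocks of 7 windows, 2.81% had such a ratio. In untreated cells 0 of 7 genes reached it in either direction, with values from -0.33 at ADH1 to 0.28 at CDC19. Of all blocks, 0.360% were at 0.5 or more and 3.13% at -0.5 or less in untreated cells. The change of the ratio was 0.5 or more at 7 of 7 genes, with 1.97 ± 0.18 at PGK1, 1.57 ± 0.14 at ENO1, 1.41 ± 0.27 at CDC19, 1.41 ± 0.13 at ADH1 and 1.18 ± 0.14 at TDH3. It was lowest at PDC1 (0.93 ± 0.17) and ENO2 (0.88 ± 0.16). Among all blocks 6.75% changed by as much in this direction, and the median was 0.09. No block of 7 windows in the nuclear genome had a change of the ratio, or of H3T45p alone, as large as the kilobase upstream of PGK1.

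Much of the upstream difference lay in windows poor in H3. Of the 46 upstream windows, 26 had an H3 signal of at least 25% of the genome median in both conditions, and with these alone the change of the ratio was 0.5 or more at 4 genes, PGK1 (1.61), ENO1 (1.54), ADH1 (1.41) and PDC1 (0.83). The value of PDC1 rests on 2 of 6 windows, that of PGK1 on 4 of 6, that of ENO1 on 6 of 7 and that of ADH1 on 6 of 6. The change of the ratio was 0.28 at CDC19, where 1 window was left, 0.26 at TDH3 (4 of 7 windows) and 0.19 at ENO2 (3 of 7 windows). The change of H3T45p alone was then -0.06 at CDC19 and -0.11 at ENO2, below 0. The share of all blocks at 0.5 or more with the same filter was not computed.

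The order of the genes by these values is not firm. The SD over the windows of a flank was up to 1.44 for the change of the ratio, because a few windows carried it. Between genes next to each other in the order, the gap was smaller than the larger of their window SDs in 6 of 6 cases for the change of the ratio and likewise for the change of H3T45p.

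**Figure D2:**
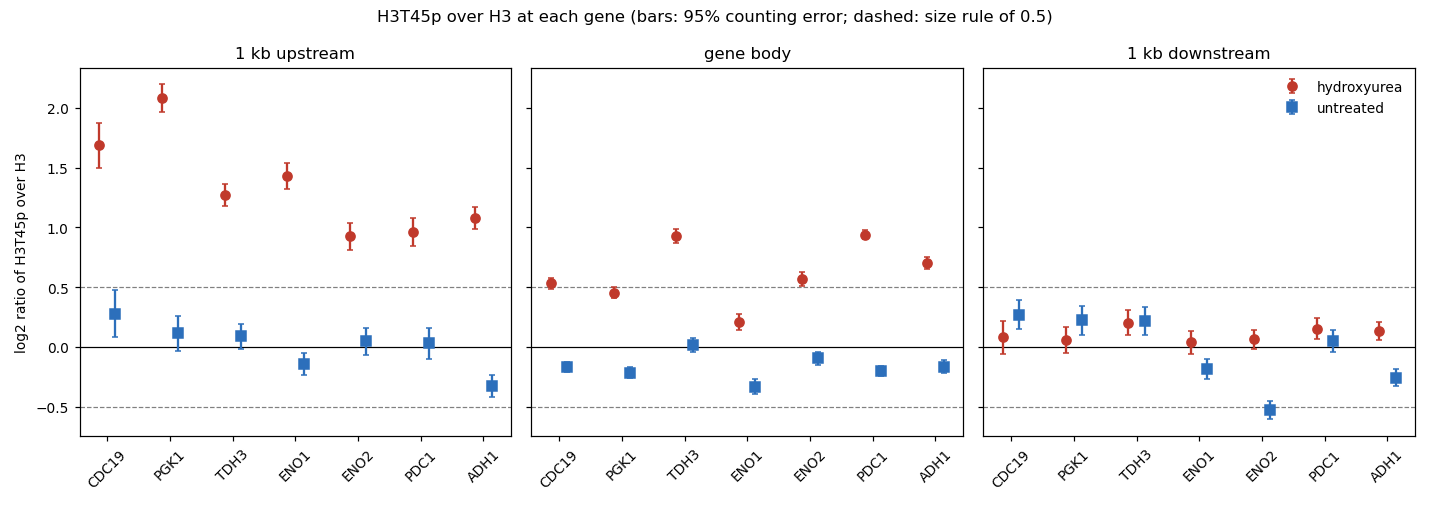
Log2 ratio of H3T45p over H3 for each gene in the 1 kb upstream, the gene body and the 1 kb downstream, hydroxyurea in red and untreated in blue, with bars for the 95% counting error. Upstream all 7 genes lie at 0.92 or more in hydroxyurea and at 0.28 or less in untreated cells, while downstream all lie between 0.04 and 0.20 in hydroxyurea.

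The authors' hydroxyurea peak list had a peak upstream of each of the 7 genes, beside 6.03% of blocks of 7 windows that held one. The untreated list, of 87 peaks, had none within 1 kb of these genes (0.737% of blocks held one). The lists differ in length, with 630 peaks in hydroxyurea, and how peaks were called is not stated. Peaks and ratios come from the same libraries, so they are not separate evidence. The upstream peak of TDH3 (883951 to 884400) began 141 bp and ended 590 bp before the start, with an H3T45p signal 17.2 times that of H3 in hydroxyurea and 1.67 times in untreated cells. The upstream peak of CDC19 (71101 to 71550) had an H3T45p signal 15.7 times that of H3 in hydroxyurea and 1.70 times in untreated cells. These were the highest ratios among the peaks of the 7 genes, taken with no constant added. The H3 signal under these 2 peaks in hydroxyurea was 36.8 at TDH3 and 20.2 at CDC19, far below the genome median. The H3T45p signal was 635 at TDH3 and 317 at CDC19. The widest upstream peak was that of ENO1, 750 bp from 1000051 to 1000800, where the H3T45p signal was 3.68 times that of H3 in hydroxyurea and 0.87 times in untreated cells.

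Only PDC1 and TDH3 also had a hydroxyurea peak in the gene body, beside 8.20% of blocks of 10 windows that held one. Both peaks covered the end of the gene. The peak at PDC1 ran over 1350 bp from 232201 to 233550, that is from 531 bp after the start to 189 bp past the end. Its H3T45p signal was 2.90 times that of H3 in hydroxyurea and 1.09 times in untreated cells. The peak at TDH3 (882751 to 883350) began 460 bp after the start and reached 61 bp past the end, with an H3T45p signal 2.74 times that of H3 in hydroxyurea and 1.03 times in untreated cells.

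The gene bodies were rich in both signals. Upstream, the mean H3 signal in hydroxyurea was below the genome median at all 7 genes. In untreated cells it was 1.00 times the median at ENO1, 1.19 times at ADH1 and lower at the others. The upstream H3T45p signal in hydroxyurea ran from 0.64 times the median at CDC19 to 1.99 times at PGK1. All 7 bodies had a mean H3 signal above the genome median in both conditions, 1.27 to 2.88 times the median in hydroxyurea and 1.91 to 3.12 times in untreated cells. Of all blocks of 10 windows, 60.4% in hydroxyurea and 63.0% in untreated cells were above the median. ENO1 had the lowest body H3 in both conditions, and PGK1 had the highest in hydroxyurea (799). In untreated cells CDC19 (872), PGK1 (872) and PDC1 (869.9) were close together at the top. For H3T45p the bodies were at 1.45 to 4.84 times the median in hydroxyurea and 1.45 to 2.68 times in untreated cells. Among all blocks of 10 windows these were percentiles 73.0 to 99.9 in hydroxyurea and 86.7 to 99.9 in untreated cells.

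In the bodies the ratio of H3T45p over H3 was higher in hydroxyurea at all 7 genes. The change was 0.5 or more at 7 of 7, from 0.54 ± 0.09 at ENO1 to 1.14 ± 0.06 at PDC1, with a median of 0.70. Of all blocks of 10 windows 6.13% changed by as much in this direction, with a median of 0.10. In hydroxyurea the ratio itself was 0.5 or more at 5 of 7 genes (2.44% of blocks), with 0.45 at PGK1 and 0.21 at ENO1 short of it. In untreated cells 0 of 7 passed in either direction (0.281% of blocks were at 0.5 or more and 2.44% at -0.5 or less), and the values lay between -0.33 at ENO1 and 0.02 at TDH3.

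Which antibody moved differed between the bodies. At PDC1 the mean H3T45p signal of the body was 1370.3 in hydroxyurea against 752 in untreated cells, and that of H3 was 701 in hydroxyurea against 869.9 in untreated cells. At ADH1 the mean H3T45p signal was 1119 in hydroxyurea against 704 in untreated cells, and that of H3 was 677 in hydroxyurea against 794 in untreated cells. In both genes the H3T45p signal was higher and the H3 signal lower in hydroxyurea. At PGK1 the mean H3T45p signal was 1105 in hydroxyurea against 746 in untreated cells, with an H3 signal of 799 in hydroxyurea against 872 in untreated cells. At TDH3 the mean H3T45p signal was 921 in hydroxyurea against 632 in untreated cells, with an H3 signal of 471 in hydroxyurea against 623 in untreated cells. These 4 genes were the ones whose body H3T45p changed by 0.5 or more (6.34% of blocks), by 0.84 at PDC1, 0.65 at ADH1, 0.55 at PGK1 and 0.52 at TDH3.

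The other 3 bodies changed more in H3 than in H3T45p, with no local median subtracted. At ENO1 the mean H3T45p signal was 411 in hydroxyurea against 418 in untreated cells, while that of H3 was 351 in hydroxyurea against 533 in untreated cells. ENO1 was the only body whose H3 changed by -0.5 or less (2.99% of blocks), at -0.57 ± 0.06. At ENO2 the mean H3T45p signal was 673 in hydroxyurea against 569 in untreated cells, and that of H3 was 446 in hydroxyurea against 609 in untreated cells. At CDC19 the mean H3T45p signal was 937 in hydroxyurea against 772 in untreated cells, and that of H3 was 639 in hydroxyurea against 872 in untreated cells. Across the 7 bodies the change of H3 lay between -0.57 and -0.12 with a median of -0.38, beside -0.05 over all blocks. The change of H3T45p lay between -0.02 and 0.84 with a median of 0.52, beside 0.05 over all blocks.

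The order of the bodies by the change of H3T45p, from PDC1 through ADH1, PGK1, TDH3, CDC19 and ENO2 to ENO1, had 2 gaps larger than the window SDs on either side. They lay between TDH3 and CDC19 and between ENO2 and ENO1. Neither gap remained once the median of blocks within 20 kb was subtracted. The values then lay between 0.15 and 0.47, and TDH3 was the lowest. For the change of the ratio none of the 6 gaps was larger.

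**Figure D3:**
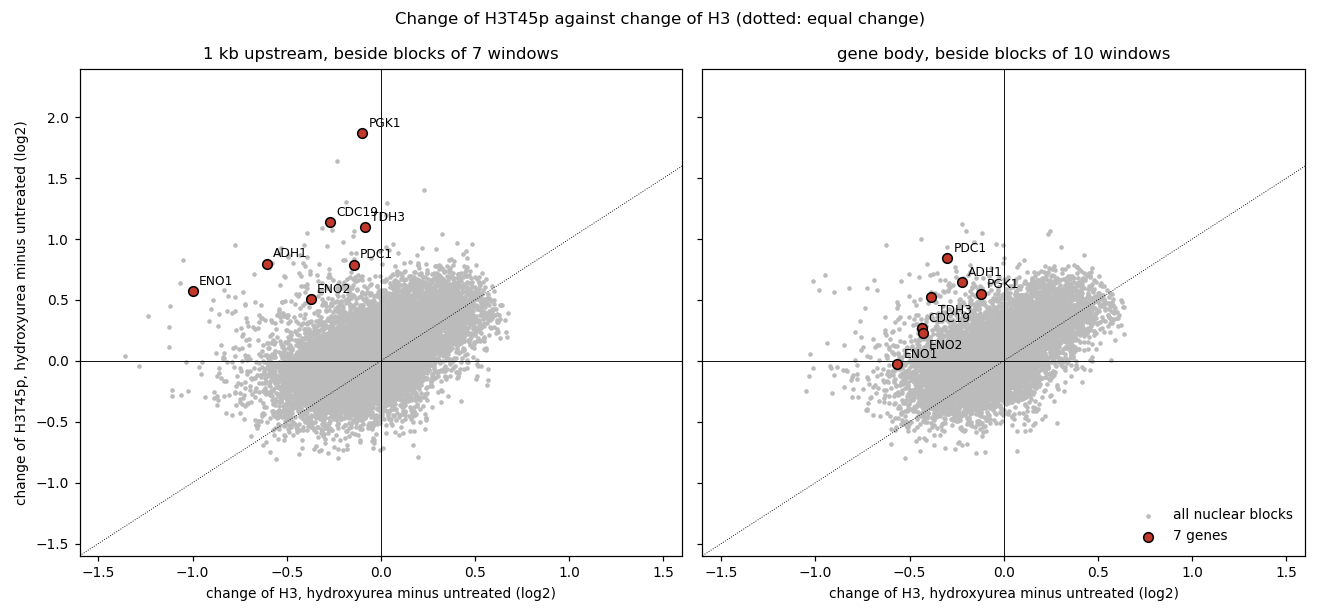
Change of H3T45p against change of H3 (log2, hydroxyurea minus untreated) for the 7 upstream regions (left, over 11121 blocks of 7 windows in grey) and the 7 gene bodies (right, over 7827 blocks of 10 windows). All 14 points lie above the dotted line of equal change, and PGK1 upstream at 1.87 lies above every block.

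Within the bodies the ratio in hydroxyurea was higher toward the end of the gene. With each body split at its midpoint, the log2 ratio in hydroxyurea was higher in the part near the end at 7 of 7 genes. The difference was 0.98 at PDC1, 0.79 at TDH3, 0.59 at ENO2, 0.49 at ADH1, 0.40 at CDC19, 0.22 at PGK1 and 0.13 at ENO1. It was 0.5 or more at 3 genes. Of complete blocks of 10 windows, which have no direction, 5.01% differed by 0.5 or more either way between their first and last 5 windows. At TDH3 the part near the end had an H3T45p signal of 812 and an H3 signal of 297 in hydroxyurea, against an H3T45p signal of 501 and an H3 signal of 485 in untreated cells. The part of TDH3 near the start had an H3T45p signal of 1065 and an H3 signal of 703 in hydroxyurea, against an H3T45p signal of 806 and an H3 signal of 808 in untreated cells.

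In untreated cells the part near the end had the higher ratio at 5 of 7 genes, with a median difference of 0.15, and only PDC1 (0.58) was at 0.5 or more (5.79% of blocks differed by as much either way). The change with hydroxyurea was larger in the part near the end at 6 of 7 genes, ENO1 being the exception at -0.02. The difference of that change was 0.5 or more at TDH3 (0.74) and PGK1 (0.53), beside 10.6% of blocks either way. At PDC1 the H3T45p change was nearly the same in both parts, 0.84 near the start and 0.85 near the end. Its H3 change was -0.19 near the start and -0.57 near the end, so that H3 carried the gradient of the change there. At PGK1 the H3T45p change was 0.31 near the start and 0.68 near the end, and the H3 change was -0.02 near the start and -0.18 near the end.

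**Figure D4:**
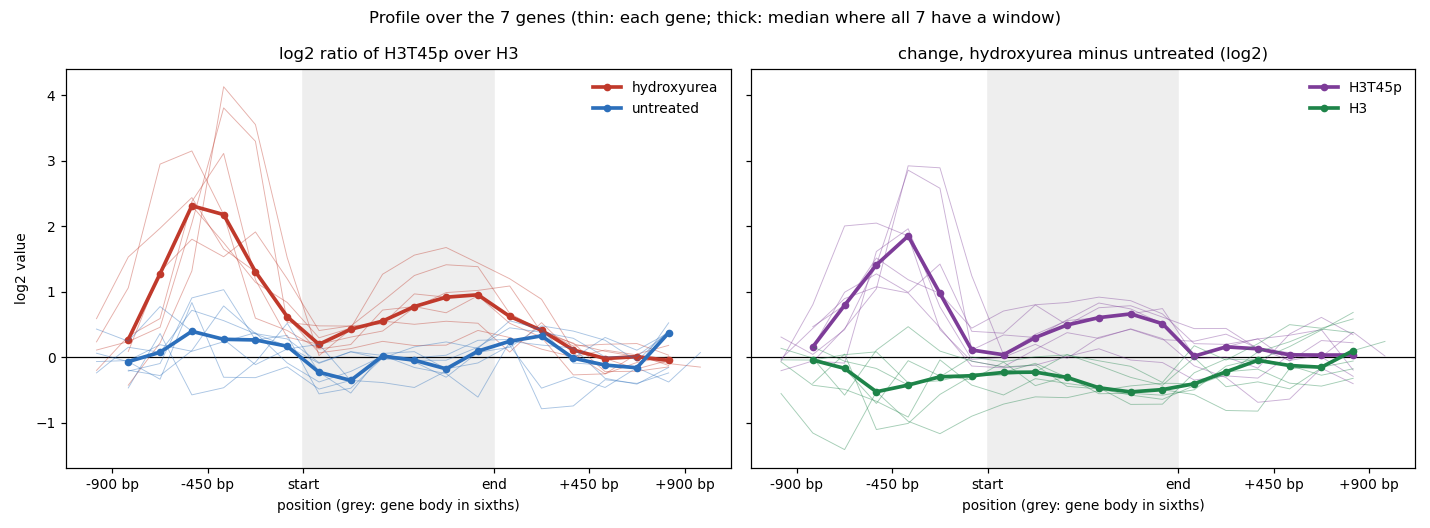
Left, log2 ratio of H3T45p over H3 in hydroxyurea (red) and untreated cells (blue), and right, change with hydroxyurea of H3T45p (purple) and H3 (green), along the upstream kilobase, the body in sixths and the downstream kilobase. The median ratio in hydroxyurea was 2.31 from 450 to 600 bp before the start, 0.20 in the first part of the body and 0.95 in the last, while the untreated median stayed between -0.35 and 0.40.

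Downstream of the genes there was little of this. The log2 ratio in hydroxyurea lay between 0.04 and 0.20, and 0 of 7 genes passed 0.5 in either direction (2.81% of blocks were at 0.5 or more and 0.0270% at -0.5 or less). Only ENO2 changed by 0.5 or more in the ratio (6.75% of blocks), at 0.59 ± 0.11. There the ratio was 0.06 in hydroxyurea against -0.53 in untreated cells, so the change came with a low untreated ratio. The mean H3 signal downstream of ENO2 was 409 in hydroxyurea against 579 in untreated cells, while that of H3T45p was 429 in hydroxyurea against 393 in untreated cells. The median change of the ratio downstream was 0.11, beside 0.09 over all blocks. None of the 7 genes changed by 0.5 or more in H3T45p downstream (6.54% of blocks), where the values lay between -0.38 at CDC19 and 0.27 at PDC1. With 7 genes, these downstream counts are not far from the shares of all blocks.

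By single windows with 50 or more reads in the pair, the H3T45p signal was at least 2 times that of H3 in 28 of 44 upstream windows in hydroxyurea and in 6 of 43 in untreated cells. In bodies this was so in 15 of 63 windows in hydroxyurea and 0 of 63 in untreated cells, and downstream in 4 of 42 in hydroxyurea and 0 of 42 in untreated cells. Over all nuclear windows 2.93% met the rule in hydroxyurea and 1.05% in untreated cells. Of the body windows that met it, 8 were at PDC1, 4 at TDH3, 2 at ENO2 and 1 at CDC19. The 46 upstream windows took 0.0639% of the nuclear H3T45p reads in hydroxyurea (exact binomial interval 0.0628 to 0.0649%) and 0.0336% in untreated cells (0.0329 to 0.0344%). Of the nuclear H3 reads they took 0.0232% in hydroxyurea (0.0226 to 0.0238%) and 0.0317% in untreated cells (0.0310 to 0.0324%).

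The change of the ratio varied over the genome with the H3 level, which is low upstream of most of these genes and high in their bodies. The kilobases upstream of CDC19, PGK1, ENO2 and PDC1 fell in the lowest of 10 classes of H3 signal, where the median block of 7 windows changed by -0.13. Those of TDH3 and ENO1 fell in the next class, with a median of -0.12, and that of ADH1 in the fourth, with -0.01. With the class median subtracted the upstream changes of the ratio were 1.01 to 2.10, and 7 of 7 stayed at 0.5 or more. Within their class they lay at percentiles 96.9 (ENO2) to 100 (PGK1). Of the bodies, 6 fell in the highest class, where the median block of 10 windows changed by 0.40, and ENO1 in the one below, with 0.26. With the class median subtracted the body changes were 0.26 to 0.74, and only PDC1 (0.74) and TDH3 (0.51) were at 0.5 or more. Within their class the bodies lay at percentiles 92.6 (ENO2) to 99.5 (PDC1). The body changes of H3T45p less their class median lay between -0.26 and 0.47, with 4 of 7 above 0 in place of 6 of 7.

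The surroundings of the genes differed in how both signals moved, and the upstream regions and bodies lay above the local median change of the ratio. Over the blocks within 20 kb of a gene, without its own windows, the median change of H3 ran from -0.33 at ENO1 to 0.33 at TDH3, and that of H3T45p from -0.18 at ENO1 to 0.37 at PDC1 and TDH3. Some of these blocks also changed by 0.5 or more in the ratio, from 1 of 25 around TDH3 and 1 of 26 around ENO2 to 3 of 23 around PGK1 and 4 of 26 around CDC19. The local median change of the ratio was between 0.07 and 0.20. Less these local medians, a step likewise chosen after seeing the data, the upstream change of H3T45p was between 0.42 and 1.62 and was 0.5 or more at 4 of 7 genes. The body change of H3T45p was between 0.15 and 0.47, with 0 of 7 at 0.5, and that of H3 between -0.71 and -0.21. Which signal moved more in a body depended on this step. Around TDH3 the local median was 0.37 for H3T45p and 0.33 for H3. With the local medians subtracted, H3 moved more than H3T45p at TDH3, ADH1 and, narrowly, PDC1. At CDC19 both signals then moved by about as much. Less the local median, the upstream change of the ratio was between 0.76 and 1.88, with 7 of 7 at 0.5 or more, and that of the bodies was between 0.41 and 0.97, with 5 of 7. Scaling by the nuclear reads of each library, in place of the authors' factor, shifted the median change of the ratio over blocks of 7 windows by -0.17 and left 7 of 7 upstream regions at 0.5 or more. For blocks of 10 windows the shift was also -0.17, and 4 of 7 bodies were at 0.5 or more. With this scaling the upstream change of H3T45p was 0.39 or more, with 5 of 7 genes at 0.5 or more. The shares of all blocks at 0.5 or more after the local subtraction or this scaling were not computed.

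In shape, the H3T45p profile of untreated cells followed that of H3 upstream of each gene, and in hydroxyurea it did so less. Over the 6 or 7 upstream windows of a gene, which are neighbours in the same libraries, Pearson's r of log2 H3T45p with log2 H3 was -0.46 to 0.87 with a median of 0.39 in hydroxyurea. It was 0.81 to 0.99 with a median of 0.97 in untreated cells. In the bodies r was 0.79 to 0.97 in hydroxyurea and 0.81 to 0.98 in untreated cells. The H3 profile itself kept its shape, with an r of 0.93 to 0.99 between hydroxyurea and untreated cells upstream.

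In the RefSeq annotation (R64) the upstream neighbours are PDX1 for TDH3, ADP1 for PGK1, PUP2 for ENO1, YHR173C for ENO2, CYC3 for CDC19, STU2 for PDC1 and YOL085C for ADH1. How far the outer windows lie in these neighbours was not tested. With flanks of 500 bp in place of 1 kb, an alternative chosen after seeing the data, the upstream ratio in hydroxyurea was 1.29 to 3.44 and the upstream change of the ratio 0.76 to 2.95. The H3T45p change was then 0.58 to 2.69, again 0.5 or more at 7 of 7 genes.

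Similar profiles were found elsewhere. The blocks of 7 windows closest to the median of the 7 upstream regions in all 4 log2 signals began at 140701 on chromosome 5, 248851 on chromosome 9, 919801 and 592201 on chromosome 7, and 454651 on chromosome 10. Their change of the ratio lay between 1.12 and 1.45. The closest blocks of 10 windows to the median body began at 67501 and 192001 on chromosome 5, 612001 on chromosome 2 and 382501 on chromosome 11. A shorter block from 229501 to 230250 on chromosome 1 was also among the 5 closest. The change of the ratio in these 5 blocks lay between 0.39 and 0.90. Such blocks were chosen by these signals, so their values describe the likeness only. The genes themselves were spread widely around their median. Upstream, 9011 of 11121 blocks were closer to it than the farthest gene, and for bodies 1569 of 7827 blocks were.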

How the data were processed

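H3T45p and H3 were measured by ChIP-seq in 4 libraries, 1 per group, grouped by the labels. The authors deposited a signal per 150 bp window for each library. All values were whole multiples of 1 read (100%, within 0.001 read), so reads were recovered and the signal is reads times 1 factor per library. The submitters' processing notes name BWA 0.5.9-r16 and DESeq, with no role. No source used here names the genome build. Peak positions are the authors' as deposited.

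Gene regions were windows by midpoint, and values were log2 ratios of mean signals with 28.3 (10% of the genome median) added. All nuclear blocks of 10 windows (for bodies) or 7 (for flanks) gave the background. They were laid end to end from the first window of each chromosome, without regard to genes, and kept with 3 or more windows that held signal. A difference counted at 0.5 log2. A count test on the recovered reads could not be run with 1 library per group. Counting errors are 95% normal intervals on the log scale, and those of shares and window folds are exact binomial. The named genes are the 7 members, and named blocks are the 5 closest in the 4 log2 signals. Members and lists were chosen with earlier results of these data known. Neighbour names come from RefSeq R64. Other pathway genes and promoter motifs were not analysed here, as no annotation or sequence in the files' build was at hand. The block calls were tried on simulated reads with a mean shared by the 4 libraries and counting noise only. That simulation holds no variation between libraries, so it cannot show how often such variation would reach 0.5. Python 3.11.15, numpy 2.4.6, pandas 2.3.3, scipy 1.17.1 and matplotlib 3.10.9 were used.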

Additional observations from a re-analysis of the deposited data

How the results depend on the processing

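Over 15 alternatives, 402 of 442 counts of genes stayed within 1.5 times the reported count and 40 did not. Most of the reported counts were 0, and a count that stayed at 0 was scored as unchanged. The 402 therefore say little about how firm the counts above 0 are. Of 1440 values of single genes, 1022 were scored as unchanged, 416 as moved and 2 as reversed. Of the same 1440 values, 54 changed sign, among them 2 of the 575 whose reported value was past 0.5. The sign was thus kept more often than the value itself. Without windows whose H3 was under 25% of the genome median, the upstream counts of genes past 0.5 were 4 for the hydroxyurea ratio, 4 for the change of the ratio and 4 for the change of H3T45p, and the H3T45p change was -0.060 at CDC19 and -0.11 at ENO2. With 500 bp flanks, 1 gene had a higher untreated ratio upstream, and downstream 2 changed in the ratio and 1 was lower in H3. Less the median within 20 kb, the H3T45p change was passed by 4 genes upstream and 0 bodies, and H3 was lower in 2 bodies. A pseudocount of 50% of the median gave 1 gene lower in H3 upstream, and bodies at 3 for the hydroxyurea ratio, 2 for H3T45p and 0 for lower H3. Without ENO1 and ENO2, 1 gene was lower in H3 upstream and 0 in bodies. Scaling by nuclear reads gave 4 bodies for the change of the ratio and 2 for H3T45p, centring on all blocks gave 2 for H3T45p, and subtracting the H3 class median gave 2 for the ratio and 0 for H3T45p. The upstream count of 7 for the change of H3T45p fell to 5 with the larger pseudocount and with scaling by nuclear reads. It was 6 with centring on all blocks, with odd windows and with positions moved right by 100 bp. These falls were scored as unchanged. Downstream, the count of lower untreated ratios (ENO2) was 0 with the larger pseudocount, scaling by nuclear reads, the 3 subtractions of a median, without the enolases, with positions moved by 100 bp either way, with the mean of logs and with even windows. The downstream change of the ratio was passed by 0 genes with the larger pseudocount, scaling by nuclear reads, class or local medians and without the enolases, and by 2 with even windows. Downstream H3 was lower at 1 gene with no pseudocount and with odd windows. By any overlap 2 hydroxyurea peaks reached past a gene end, 0 with 50% or more of the peak there and 1 with positions moved left. The cause of these moves was not tested, and shares of all blocks were not computed under the alternatives. No paired analysis was possible because the hydroxyurea and untreated libraries share no replicate number. Depth limits windows poor in H3 most: with 48 H3 reads in the top PGK1 window in hydroxyurea, its ratio is imprecise.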
